A study of Mus musculus with 3 samples.

Results

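The data describe where Brachyury was found on chromatin around 6 genes of the organizer and notochord: Foxa2, Gsc, Lhx1, Noto, Shh and Chrd. The members were the regions of the deposited list whose midpoint lay within 100 kb of the start site of one of these genes on build mm9, and 15 of the 3160 listed regions (0.475%) met this rule. The list came from embryonic stem cells of the mouse line D3, which the labels trace to (C3H/HeH x 101/H)F1 mice, that had been turned into mesoendoderm in serum-free medium with Activin A. Of 3 ChIP-seq libraries (sequenced DNA of antibody-precipitated chromatin), 1 each was made with antibodies from rabbit #1 and rabbit #2 against residues 249 to 436 of Brachyury as a GST fusion protein, and 1 with pre-immune IgG as a mock. The labels name no sorting of the cells, no library was replicated, and the single list of the series holds positions alone, so neither read depth nor the error of a region is known and the antibodies could not be compared.

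Brachyury is a T-box transcription factor of the primitive streak, and mouse embryos without it fail to form a notochord. The node, the mouse counterpart of the amphibian organizer, lies at the anterior end of the streak and gives rise to the axial mesoderm, which includes the prechordal plate and the notochord. The 6 genes cover its transcription factors (Foxa2, Gsc, Lhx1 and Noto) and its secreted signals (Shh, which patterns the ventral neural tube, and Chrd, which binds and blocks BMP ligands).

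All 6 genes had at least 1 region, and 0 of the 6 had none. Lhx1 had the most, with 5 regions. Foxa2 and Chrd had 3 each, Noto had 2, and Gsc and Shh had 1 each. In every one of the 6 windows the nearest region had its midpoint within 10 kb of the start site, at distances from 0.25 kb for Lhx1 to 7.27 kb for Chrd. The start sites were given to 0.01 Mb, so each distance carries an uncertainty of about 5 kb, and the order of the genes by distance cannot be read from these values.

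**Figure D1:**
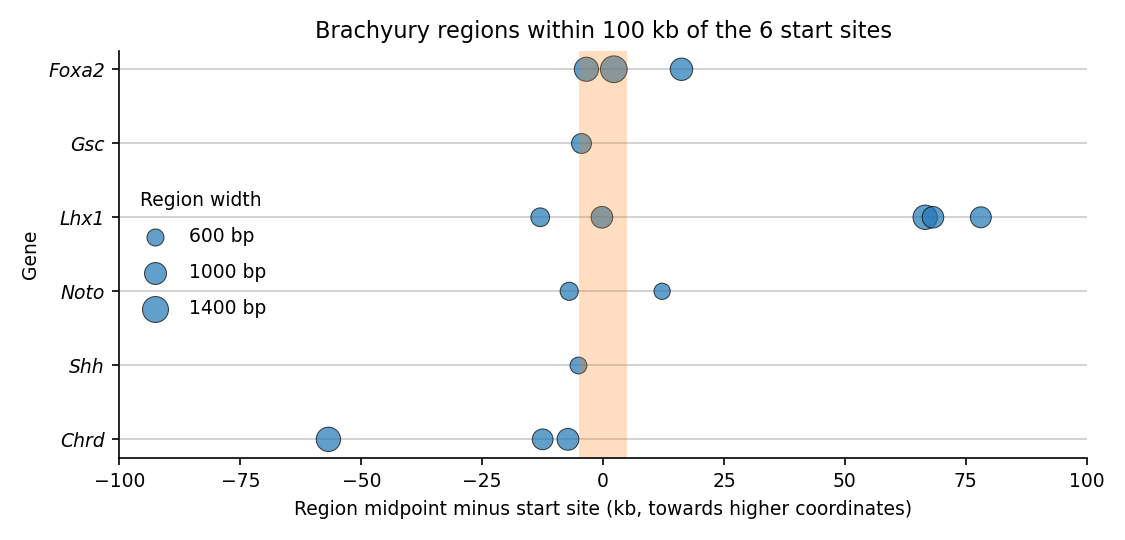
Map of the 15 regions by the distance of their midpoint from the start site of the gene, in kb towards higher coordinates (x axis), with 1 row per gene and circle area proportional to region width. The orange band marks the 5 kb on either side by which the rounded start sites can be off; each gene has a region within 7.27 kb, and only Lhx1 and Chrd have regions beyond 20 kb.

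At Foxa2, Gsc and Lhx1 a region midpoint lay within that 5 kb of the start site, so the region could cover the promoter. The Lhx1 region spanned the given start site itself. For the Gsc region, with its midpoint 4.61 kb away, the given start site would have to be off by most of the 5 kb. The region of Shh, centred 5.12 kb away, also reached into these 5 kb with its end, but no promoter sequence of Shh was available. The 250 bases before the start are shown for Foxa2, Gsc and Lhx1, to show the DNA that such a region would hold. They are from RefSeq on GRCm38.p6, minus strand, and their coordinates do not compare with the mm9 positions of the regions: chr2:148046970-148047219 for Foxa2 (the farthest upstream of its 3 listed starts), chr12:104473237-104473486 for Gsc and chr11:84525535-84525784 for Lhx1. Each runs 5′ to 3′ towards the gene, and capitals mark CG dinucleotides.
Foxa2: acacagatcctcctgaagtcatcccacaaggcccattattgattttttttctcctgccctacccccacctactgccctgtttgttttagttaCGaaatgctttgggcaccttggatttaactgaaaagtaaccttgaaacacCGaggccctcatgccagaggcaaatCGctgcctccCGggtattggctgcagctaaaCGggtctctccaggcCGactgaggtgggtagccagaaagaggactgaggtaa
Gsc: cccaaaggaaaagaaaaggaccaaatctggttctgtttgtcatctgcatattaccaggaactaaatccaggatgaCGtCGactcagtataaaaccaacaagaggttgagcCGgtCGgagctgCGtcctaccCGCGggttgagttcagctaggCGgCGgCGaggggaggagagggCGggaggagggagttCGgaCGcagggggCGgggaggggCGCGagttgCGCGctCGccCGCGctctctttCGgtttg
Lhx1: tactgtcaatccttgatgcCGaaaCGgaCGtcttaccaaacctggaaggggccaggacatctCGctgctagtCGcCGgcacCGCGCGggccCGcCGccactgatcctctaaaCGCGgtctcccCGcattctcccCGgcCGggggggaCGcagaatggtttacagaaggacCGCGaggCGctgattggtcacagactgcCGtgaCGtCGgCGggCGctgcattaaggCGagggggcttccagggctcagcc

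The Lhx1 stretch held 26 CG dinucleotides, a number reached by 9.59% of all 32851 RefSeq promoter stretches of this length, and the Gsc stretch held 22 (reached by 14.8%). The Foxa2 stretch shown held 6, which equals the median of all promoters, while those before the other 2 listed starts of Foxa2 held 20 (reached by 17.9%) and 13 (reached by 31.5%). Which of these starts the regions lie nearest to cannot be read within the rounding. Exact matches on either strand were searched in 7 RefSeq promoters of 5 of the genes, Foxa2, Gsc, Lhx1, Noto and Chrd, from 250 bases before to 50 after the start. The T-box core TCACACCT, held by 1.28% of all promoters, was in 0 of the 7. The homeodomain sequences TAATCC (7.06% of all promoters) and TAATTA (5.29%) and the forkhead sequences TGTTTAC (3.65%) and TATTTAC (3.04%) were also in 0 of the 7. At shares this low, 0 matches in only 7 promoters was the likely outcome for each sequence. The counts therefore cannot show that these genes lack such sites. These promoter windows are also not the precipitated regions, whose own sequence was not analysed here.

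Foxa2 encodes a forkhead factor of the node, notochord, floor plate and definitive endoderm. Its 3 regions lay close together on chromosome 2, within 20.8 kb, around the start site at 147.87 Mb. The widest of all 15 members, chr2:147871471-147872950, measured 1480 bp, and its midpoint was 2.21 kb from the start site towards higher coordinates, which is the upstream side of this minus-strand gene. The second, chr2:147865943-147867151, measured 1209 bp and lay 3.45 kb to the other side. Neither of these can be placed before or after the start within the rounding. The third, chr2:147885655-147886696, measured 1042 bp and lay 16.2 kb upstream. All 3 were wider than the upper quartile of the list, 1019 bp. Beyond this group the next regions were 960 kb away on the lower side and 400 kb away on the higher side. In the gene order of RefSeq on GRCm38.p6, used here and for the genes below, the coding neighbours of Foxa2 are Pax1 and Sstr4, and its direct neighbours are the non-coding 9030622O22Rik and the pseudogene Gm14108.

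Gsc encodes the homeodomain factor Goosecoid, a transcriptional repressor expressed in the organizer and prechordal plate. It had 1 region, chr12:105704975-105705798, of 824 bp, with its midpoint 4.61 kb from the start site at 105.71 Mb on the lower side, which is the downstream side of this minus-strand gene but within the rounding. Its width was close to the median of the list, 850 bp. The window held no other region: the next lay 346 kb from the start site on the higher side and 910 kb on the lower side. Measured from the region itself, these gaps were 351 and 906 kb. They were reached by 52.1% and 26.4% of the distances between adjacent regions on chromosome 12 (median 363 kb). In gene order its direct neighbours are the non-coding Gm40562 and Gm10000, and its coding neighbours are Serpina3n and Dicer1.

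Lhx1 encodes a LIM homeodomain factor that head formation and the anterior streak require. Its 5 regions on chromosome 11 fell into 2 groups. Near the start site at 84.34 Mb, chr11:84339264-84340237 (974 bp) was centred 0.25 kb from it and chr11:84326660-84327390 (731 bp) lay 13.0 kb downstream, on the side of the neighbouring gene Aatf. The other group lay upstream within 12.6 kb: chr11:84405948-84407183 (1236 bp) at 66.6 kb, chr11:84407705-84408669 (965 bp) at 68.2 kb and chr11:84417597-84418505 (909 bp) at 78.1 kb. The first pair of this upstream group was separated by 521 bases. Counted as 1 region, they bring the number at Lhx1 to 4. The closest region outside any of the 6 windows also lay here, 185 kb from the start site on the upstream side. The coding neighbour on the upstream side is Mrm1, with the non-coding Lhx1os between them, so the assignment of the upstream group to Lhx1 rests on distance alone.

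Noto encodes a homeodomain factor of the node and nascent notochord. It had 2 regions on chromosome 6, on opposite sides of the start site at 85.37 Mb. The upstream one, chr6:85362648-85363333 (686 bp), lay 7.01 kb away, and the downstream one, chr6:85381892-85382442 (551 bp), lay 12.2 kb away, on the side of the neighbour Smyd5. The second was the narrowest of the 15, and 91.4% of the list was at least as wide. On the upstream side the direct neighbour is the non-coding 4933423K11Rik, followed by the coding gene Rab11fip5. These were the only 2 regions within 1 Mb of Noto. The next were 1190 kb away on the lower side and 1110 kb away on the higher side.

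Shh encodes Sonic hedgehog, secreted by the notochord and floor plate. It had 1 region, chr5:28784588-28785175, of 588 bp, centred 5.12 kb below the start site at 28.79 Mb. It was also narrow, with 87.3% of the list at least as wide. Outside the window the nearest regions were 297 kb away on the lower side and 441 kb away on the higher side. In gene order Shh lies between Rbm33 and the non-coding 9530036O11Rik, and the coding neighbour on the higher side is Rnf32. Within 1 Mb of Shh there were 5 regions in all. Some known enhancers of Shh lie far from the gene, and whether the distant regions coincide with any was not analysed here.

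Chrd encodes Chordin. Its 3 regions on chromosome 16 were all upstream of the start site at 20.73 Mb, on the side of the neighbour Thpo. The nearest, chr16:20722237-20723221 (985 bp), lay 7.27 kb away and the next, chr16:20717004-20717898 (895 bp), lay 12.5 kb away, with midpoints 5.28 kb apart. The third, chr16:20672551-20673774 (1224 bp), lay 56.8 kb away. On the downstream side, where the direct neighbour is the snRNA gene Gm22741, the nearest region lay 517 kb away. As with the upstream group of Lhx1, the assignment of the 3 regions to Chrd rests on distance alone. The same holds for the members at the other genes.

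The background was taken from windows of the same width moved along the same chromosome in whole steps of 200 kb from the start site. Of 3988 such windows over the 6 chromosomes, 20.9% held any region, against all 6 of the gene windows. The 6 gene windows held 15 regions where the means of the shifted windows summed to 1.63. For Lhx1, 0% of 588 shifted windows on chromosome 11 held 5 or more (0 windows, Wilson 95% interval 0% to 0.649%), and the fullest held 4. In overlapping windows moved in steps of 50 kb, 0.128% of 2350 on that chromosome held as many. At least 3 regions, the number at Foxa2, were held by 1.46% of 888 windows on chromosome 2 (Wilson 95% interval 0.858% to 2.49%), where the fullest held 6. For Chrd, 0.857% of 467 windows on chromosome 16 held at least 3 (interval 0.334% to 2.18%), and for Noto, 3.33% of 721 windows on chromosome 6 held at least 2 (interval 2.25% to 4.91%). Single regions were common in the background: 19.4% of 583 windows on chromosome 12 held at least the 1 region of Gsc (interval 16.4% to 22.8%), and 22.3% of 741 windows on chromosome 5 held at least the 1 of Shh (interval 19.4% to 25.4%). By number alone, the windows of Gsc and Shh therefore did not stand apart from those elsewhere on their chromosomes.

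**Figure D2:**
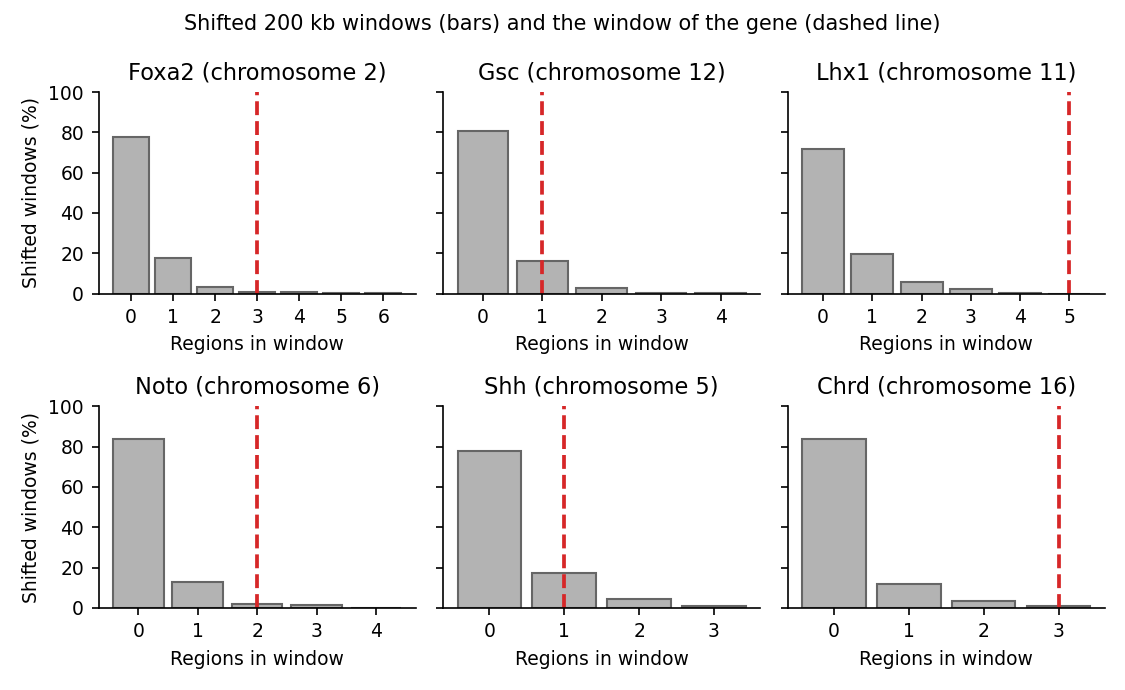
Percentage of shifted 200 kb windows (y axis) by the number of regions they held (x axis), 1 panel per gene and chromosome, with the number in the gene's own window as a dashed line. Most shifted windows held no region; the line for Lhx1 at 5 is beyond the fullest of these windows, and those for Gsc and Shh at 1 fall on a common value.

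Nearness to a region was shared by all 6 genes. A region midpoint within 10 kb was present at all 6 start sites and at 2.71% of the 3988 shifted positions, with 1.93% (chromosome 16) to 3.78% (chromosome 5) on single chromosomes. For Gsc the share on chromosome 12 was 2.57%, and for Shh it was the 3.78%. With the start sites moved up by 5 kb, the midpoints of Shh and Chrd passed beyond 10 kb and 4 of the 6 genes were left. At least 2 regions within 20 kb were present at Foxa2, Lhx1, Noto and Chrd, 4 of the 6 genes, and at 0.451% of the shifted positions. Of the 15 regions, 11 lay within 20 kb of a start site, where the shifted positions gave a mean of 0.335 summed over the 6 windows. The other 4 lay at Lhx1 (3) and Chrd (1), beyond 40 kb, and 0 lay between 80 and 100 kb. The farthest member was at 78.1 kb and the nearest region outside any window at 185 kb, both at Lhx1, so no region lay near the limit of the rule.

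**Figure D3:**
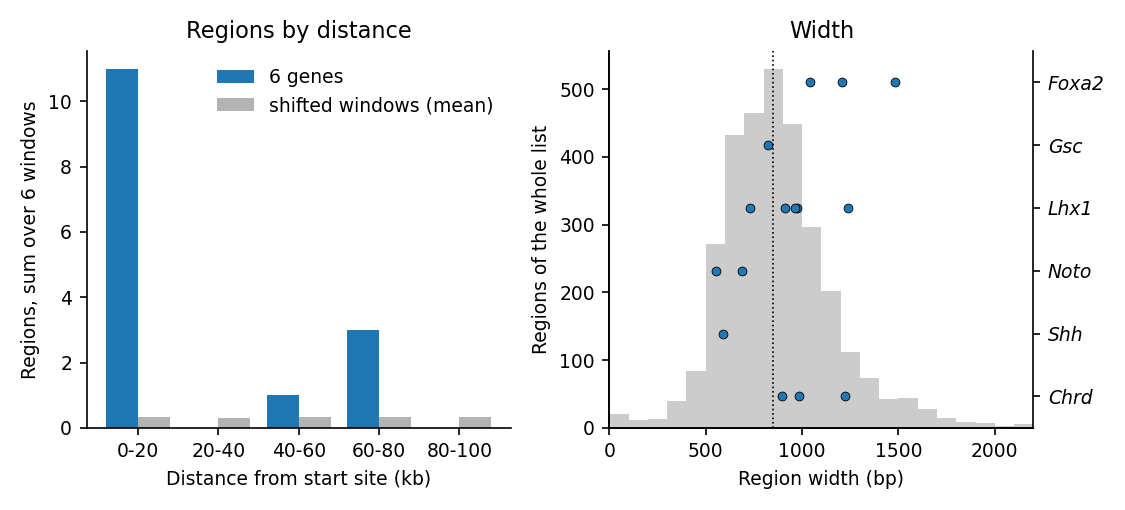
Left, number of regions (y axis, sum over the 6 windows) by distance from the start site in kb, for the genes and as the mean of the shifted windows: 11 regions fall within 20 kb against a mean of 0.335. Right, widths of the 15 regions in bp (points, by gene) over the histogram of widths of the whole list (grey, with the widest regions beyond the end of the axis, dotted line at the list's median of 850 bp), with the Foxa2 regions on the wide side and those of Noto and Shh on the narrow side.

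These shares describe positions on 1 list and are not tests. The genes were chosen with results of this list known, shifted windows are not replicates, and they include stretches with few or no genes. Windows around other gene starts, including further node and notochord genes, were not analysed here because no mm9 annotation was used.

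On the upstream side and beyond the rounding lay 8 regions at Foxa2, Lhx1, Noto and Chrd, and 2 lay downstream, 1 each at Lhx1 and Noto. Another 4 were within the rounding of the start, and the region of Shh was not oriented. The 8 upstream regions were not independent, as 3 of them belonged to 1 group at Lhx1 and 3 to Chrd. No such split was computed for other gene starts, so a preference for either side cannot be read from these numbers.

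The members had a median width of 965 bp (SD 260 between the 15 regions), against 850 bp for the list (SD 299), and this difference was not tested. The deposited list is named the common one, but how the regions of both antibodies were combined is not known. A listed width may be only the shared part of peaks from both antibodies and need not be that of a single peak. Regions found with a single antibody may be missing from the list. Regions of at least the list's median width numbered 10 of the 15. Regions of 1200 bp or more numbered 4, namely 2 at Foxa2, 1 at Lhx1 and 1 at Chrd, which is 26.7% of the members against 10.9% of the list. The genes differed: all 3 regions of Foxa2 and all 3 of Chrd were above the median width, while those of Gsc, Noto and Shh were all below it.

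Chains of at least 3 regions, with neighbouring midpoints no more than 50 kb apart, contained 9 of the 15 members (60.0%), against 7.85% of the list. These were the 3 regions of Foxa2, the upstream 3 of Lhx1 and the 3 of Chrd, the last spanning 50.7 kb. The 9 members thus formed 3 chains and were not independent, and their share in part restates the window counts above. The chain at Chrd includes a distance of 44.3 kb between midpoints, close to the limit of 50 kb. The pair at Noto and the pair at the start of Lhx1 spanned 19.8 and 13.6 kb.

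**Figure D4:**
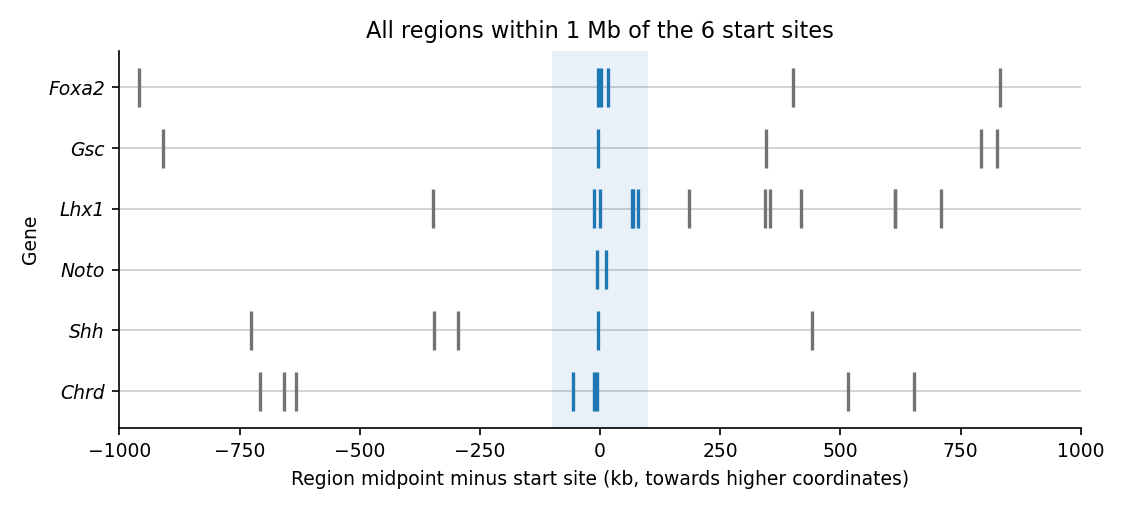
All regions within 1 Mb of the 6 start sites (1 row per gene), placed by the distance of their midpoint from the start site in kb, with those inside the 100 kb window in blue and the others in grey. Regions gather beside the start sites of Foxa2, Noto and Chrd, with empty stretches on either side. These stretches were reached by 20.5% to 41.8% of the adjacent distances on their chromosomes. Lhx1 has the most regions (13) of the 6 genes, with no background counted at this width.

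Between the flanking regions, the stretches around the members ran from 532 kb at Lhx1 to 2298 kb at Noto. No background was computed for the length of these stretches. The flanking distances ranged from shorter than the median of the chromosome to among its longer ones. The distance from the outermost member to the next region at Foxa2, 956 kb on the lower side, was reached by 20.5% of the adjacent distances on chromosome 2 (median 307 kb), and that at Noto, 1180 kb on the lower side, by 20.9% of those on chromosome 6 (median 400 kb). These were the smallest shares at any of the genes. The largest, 65.6%, was at Lhx1, where the distance of 107 kb on the higher side was shorter than the median of chromosome 11, 189 kb. Also shorter than their medians were 351 kb at Gsc (higher side, 52.1%, median 363 kb) and 291 kb at Shh (lower side, 53.1%, median 310 kb). All other shares lay between 25.5% and 41.8%. Within 1 Mb of the start site there were 13 regions at Lhx1, 8 at Chrd, 6 at Foxa2, 5 each at Gsc and Shh, and 2 at Noto. No shifted windows of this size were counted, so these numbers have no background. The chromosomes also differed in density, with means per shifted 200 kb window from 0.208 on chromosome 6 (Noto) to 0.396 on chromosome 11 (Lhx1).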

How the data were processed

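ChIP-seq was performed on 3 libraries, and the deposited list of 3160 regions (chromosome, start and end; other values: none) was the only data file. The submitters' processing notes name Bowtie, MACS2 and mm9; for thresholds, the use of the mock and how both antibodies' regions were combined, nothing is stated in the sources used here. Starts were raised by 1 to count from 1. Start sites were those of the rule, rounded to 0.01 Mb. The 15 members were regions with a midpoint within 100 kb. Shifted windows were centred at whole multiples of 200 kb from the start site, lay between the outermost regions of the chromosome and left out the gene's own window; Wilson 95% intervals treat windows as independent. RefSeq tables on GRCm38.p6 gave only neighbour order, strand and promoter sequences. All 6 genes, their direct neighbours in gene order and every member region were named by rule. The members and lists were chosen with earlier results of these data known. Window counting was tested on simulated lists. Alternatives changed window size, merging, width, start site, overlap and shifting. Python 3.11.15, numpy 2.4.6, pandas 2.3.3, scipy 1.17.1 and matplotlib 3.10.9 were used.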

Additional observations from a re-analysis of the deposited data

How the results depend on the processing

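Of 85 recomputed values, 72 stayed within 1.5 times the reported count, the Wilson interval of the reported share or 1 SD of the reported width, and 13 did not. These limits are wide for small counts and shares: among the 72, the count at Chrd was 2 with a half-width of 50 kb against 3, its share of shifted windows was 2.0% within 10 Mb against 0.857%, and the genes with a region within 10 kb were 4 against 6 with the start sites moved up by 5 kb; the cause was not tested. With a half-width of 50 kb the count at Lhx1 went from 5 to 2, because its upstream group lies beyond that distance. Keeping only regions at least as wide as the list's median, a choice that removes narrower regions by construction, the counts at Gsc, Noto and Shh were 0 each, so that 3 genes had a region, 3 had one within 10 kb and 6 regions lay within 20 kb. Among shifted windows that held at least 1 region, the share with as many regions was 6.53% for Foxa2, 20.9% for Noto, 5.33% for Chrd and, as the choice fixes, 100% for Gsc and Shh. For Gsc it was 24.0% in windows centred within 10 Mb; the cause was not tested. For Lhx1 it was 0.128% with steps of 50 kb. The total was 10 to 16 regions over the alternatives, against summed means of 0.837 (regions at least as wide as the median) and 3.26 (half-width of 200 kb) at those ends. The alternatives for the counts within 10 kb and 20 kb were added after the data were seen. No paired analysis was possible because the list is 1 table of positions without columns for single libraries. Motifs in the regions themselves and the further node genes were not run without an mm9 genome or annotation. Regions absent for lack of reads, or because a single antibody found them, cannot be recognised. Neither the depth nor the way the list was combined is known.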
